A study of Saccharomyces cerevisiae with 12 samples.

Results

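RNA levels in MATa cells of Saccharomyces cerevisiae carrying the tup1(S649F) mutation were set against those in wild-type (WT) MATa cells, over all genes. The comparison rests on 6 of the 12 libraries of the series, 3 per strain, and on 5593 of the 6219 genes in the count table, those with enough counts to be tested. The mutant strain is DY19304 (MATa tup1(S649F)) and the control strain is DY150 (MATa). Both are haploids of the W303 background and share the mutant alleles ade2-1, can1-100, his3-11,15, trp1-1 and ura3-1 and a mutant leu2 allele. Per the labels, both were grown in log phase at 30 °C in rich medium with added adenine and 2% dextrose, and collected once the culture's optical density reached 0.6 to 0.8. Total RNA was depleted of ribosomal RNA and sequenced from a stranded library. Each group is a single strain, and the labels do not tell whether its 3 replicates grew apart; p-values here cover only the spread between these samples, which may be technical. The title of the series raises a coactivator role of Tup1, so genes that fall in the mutant are of as much interest as genes that rise.

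Tup1 is a WD-repeat protein that works in one complex with Cyc8 (Ssn6). The complex does not bind DNA itself and is brought to promoters by sequence-specific proteins such as Mig1, Rfx1, Rox1, Nrg1 and Sko1, where it is best known for keeping genes off through histone deacetylases, nucleosomes and Mediator. Its classical targets in glucose-grown haploids are glucose-repressed, hypoxic, DNA damage, flocculation and stress genes. The mutation lies late in TUP1 (YCR084C), which encodes 713 residues. The codon of the mutated residue is shown in capitals, with 7 codons on each side, from the R64 reference genome of RefSeq at chrIII:260485-260529 on the minus strand. It encodes serine in the reference, and the labels give phenylalanine in the mutant.
TUP1: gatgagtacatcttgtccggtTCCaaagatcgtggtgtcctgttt

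Library totals were 6045757 to 8337346 counts in tup1 and 7102722 to 8250888 counts in WT. The library tup1 replicate 1 stood apart from the other tup1 libraries. Its counts differed from those of replicates 2 and 3 with a chi-square per degree of freedom of 21 and 28.3, against 4.08 between replicates 2 and 3 and 1.74 to 2.23 between WT libraries. Relative to the mean of replicates 2 and 3 it was more than 1.5-fold higher in 88 and more than 1.5-fold lower in 57 of 4978 genes with at least 10 CPM (edgeR's normalised counts, relative to the library total times its TMM factor) on average in tup1. Its TMM factor was 0.883, against 1.01 to 1.04 in the other 5 libraries, so its CPM values lie above the plain share of its total. Its highest genes by this measure were 4 small nucleolar RNAs (SNR190, SNR5, SNR31 and SNR17B) and RPP2B, which encodes a ribosomal stalk protein. Its lowest were the stress genes GRE1, RTN2 and SPG4, with YPI1 and YKE2. Results below are over all 6 libraries, and values without this library are given beside the counts and calls that it moves most.

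By summed markers the libraries fitted their mating type label, with no MATalpha library set beside them. The summed level of 8 MATa markers was 1731 to 1896 CPM in tup1 and 1809 to 1877 CPM in WT, and that of 8 MATalpha markers was 47.9 to 52.5 CPM in tup1 and 42.0 to 47.4 CPM in WT, nearly all of it the agglutinin gene SAG1. HMLALPHA1 and HMLALPHA2 had 0 counts in all 6 libraries. Whether these genes gain counts in MATalpha libraries was not examined, so their 0 counts are no check of mating type. TUP1 itself (chromosome III 260311 to 262452) had 475, 579 and 521 CPM in tup1 (replicates 1 to 3, in this order throughout) and 381, 380.1 and 396 CPM in WT. Every tup1 library lay above every WT library (log2 fold change 0.44 ± 0.08 SE, adjusted p = 0.000938). Since the mutation changes 1 codon and does not remove the RNA, this level is no check of the genotype.

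In tup1, 1309 genes rose (23.4% of those tested) and 802 fell (14.3%), by edgeR's quasi-likelihood test at an adjusted p of 0.05. Counts of list members below are to be read against these shares. The directions differed far more in size than in number. Among the genes that rose, 446 did so at least 2-fold (7.97% of genes tested), 209 at least 4-fold and 59 at least 16-fold. Only 31 genes fell at least 2-fold (0.554%) and 4 at least 4-fold. The median change was 1.59-fold for genes that rose and 1.25-fold for genes that fell, and the median log2 fold change of all genes was −0.01. In 2823 of the genes tested (50.5%) the 3 tup1 libraries did not overlap the 3 WT libraries, so lack of overlap is no mark of a particular gene here.

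Without tup1 replicate 1, 1539 genes rose (27.5% of 5605 tested) and 1279 fell (22.8%). The large changes hardly depended on this library: 443 of the 446 genes that rose at least 2-fold and all 31 that fell at least 2-fold were still called in the same direction. The small falls did depend on it, since 504 genes were called lower only without it, against 258 called higher only without it. The number of genes that fell was also 466 without WT replicate 1 and 478 without WT replicate 3. With upper-quartile scaling in place of TMM the median gene moved to −0.11, and the split became 1073 higher and 1572 lower. Small falls of whole classes are therefore read against this shift.

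**Figure D1:**
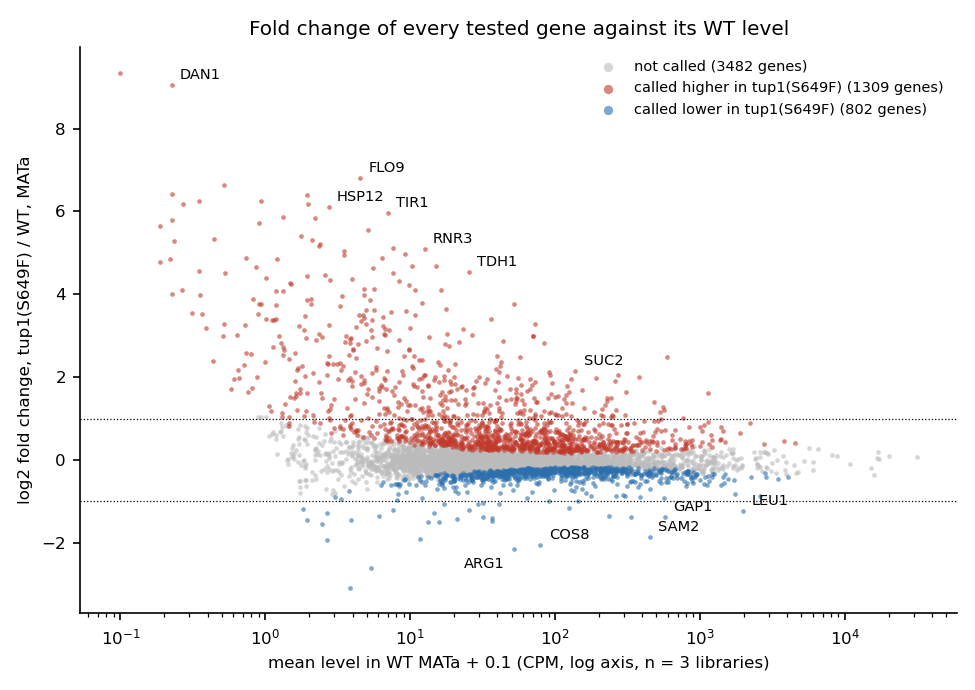
Log2 fold change (tup1(S649F) over WT, MATa; y axis) of each of the 5593 tested genes against its mean WT level (CPM plus 0.1, log x axis, n = 3); red, called higher (1309); blue, called lower (802); grey, not called; dotted lines mark 2-fold. The largest changes lie above 0, at low WT levels, a level that also enters the fold change, while the falls form a shallow band; the topmost point, HXT15, has 0 counts in WT, so its fitted value is no measure of size.

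Many of the genes that rose strongly were nearly silent in WT. Per kilobase of gene, the 445 open reading frames among those that rose at least 2-fold had a median level of 42.2 CPM per kb in tup1 and 8.40 CPM per kb in WT. The median over all 5464 tested open reading frames was 36.1 CPM per kb in tup1 and 33.8 CPM per kb in WT. The WT level is part of the fold change, and a gene with almost no WT counts was tested only because it was high in tup1, so these levels are a description. In bulk cultures more cells that express a gene and more RNA per cell cannot be told apart, for any gene below.

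Among genes with a mean of at least 10 CPM in a group, the 12 largest rises took in carbohydrate, cell wall and stress genes. HXT15, a hexose transporter gene (YDL245C), had 0 counts in every WT library and 231 counts over the tup1 libraries, which puts it at least 85.8-fold higher in tup1 against a floor of 3 counts over the WT group. DAN1 (YJR150C), which encodes a cell wall mannoprotein of anaerobic cells, had 84.3, 74.3 and 71.3 CPM in tup1 and 0.238, 0 and 0.138 CPM in WT, a ratio of 603 with a 95% counting interval of 206 to 2929. STL1, the glycerol symporter gene, had 14.1, 12.2 and 10.4 CPM in tup1 and 0.119, 0.125 and 0.138 CPM in WT, a ratio of 96.2 (counting interval 32.6 to 470). These intervals and the floor cover counting error only. Next came FLO9, a flocculin (log2 fold change 6.81), YNL194C, a membrane protein of eisosomes (6.63), SGA1, the glucoamylase of sporulation (6.39), GID10, a substrate receptor of the GID ubiquitin ligase (6.26), and DSF1, a mannitol dehydrogenase homologue (6.25). SPG4, needed for survival in stationary phase (6.18), HUG1, a small inhibitor of ribonucleotide reductase (6.17), HSP12, a membrane-stabilising stress protein (6.11), and TIR1, a mannoprotein (5.97), completed the group. That their groups do not overlap was a condition of the choice.

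**Figure D2:**
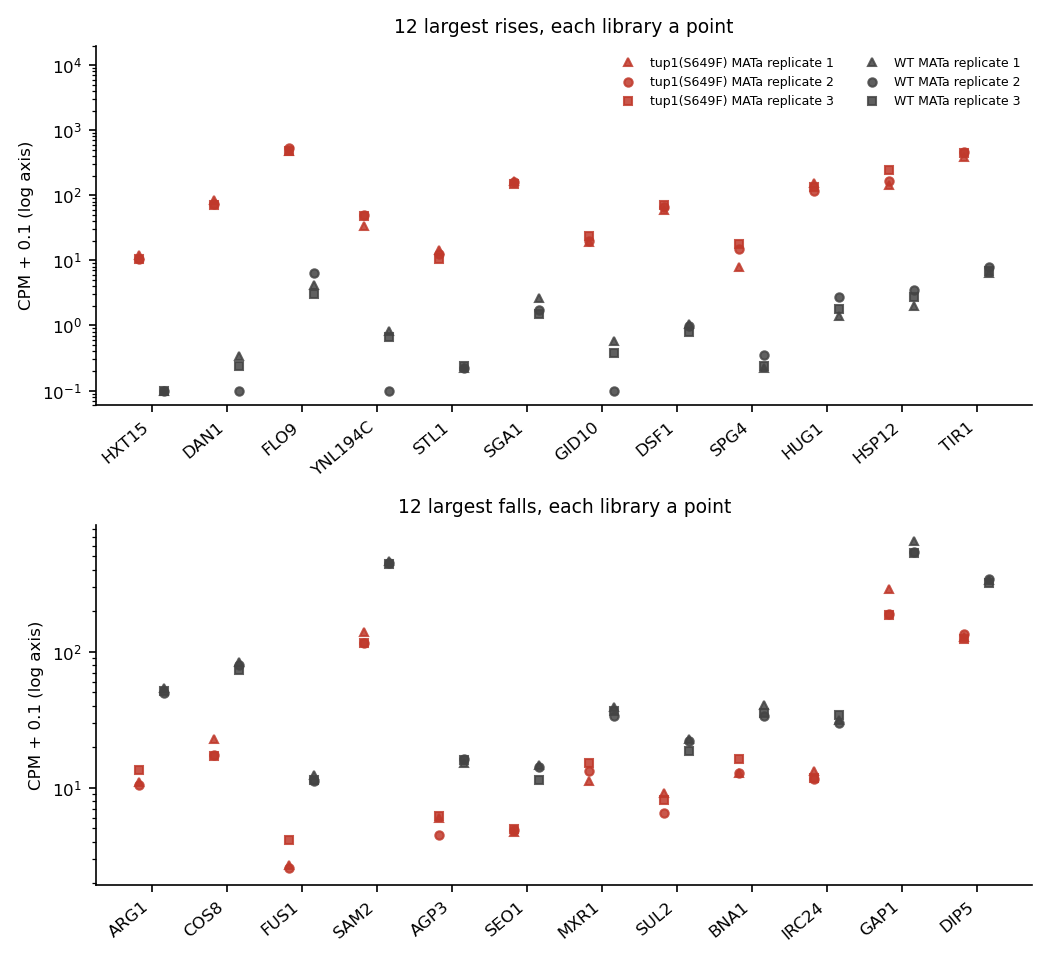
Level (CPM plus 0.1, log y axis) of the 12 genes with the largest rises (upper panel) and the 12 with the largest falls (lower panel) in each library; red, tup1(S649F) MATa; grey, WT MATa; shapes mark replicates 1 to 3. The genes were chosen for groups that do not overlap; FLO9 reaches 483 to 534 CPM in tup1, and tup1 replicate 1 is the lowest of its group for SPG4 and YNL194C and the highest for GAP1 and COS8.

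General stress genes rose as a class. These genes are switched on by the activators Msn2 and Msn4 in many stresses and stay low in growing cells. All 31 tested members rose, 27 of them at least 2-fold, with a median log2 fold change of 1.93. DDR2, a small stress protein, had 57, 86.7 and 96.1 CPM in tup1 and 1.91, 2.13 and 1.94 CPM in WT (5.31 ± 0.25 SE, adjusted p = 7.68e-09). SPI1, a cell wall protein, had 153, 204 and 196 CPM in tup1 and 5.96, 6.26 and 6.5 CPM in WT (4.88 ± 0.14, adjusted p = 1.62e-11). The cytosolic catalase gene CTT1 had 134, 164 and 193 CPM in tup1 and 6.91, 10.3 and 7.47 CPM in WT (4.31 ± 0.17, adjusted p = 1.31e-09). In all of these, tup1 replicate 1 was the lowest tup1 library and still lay well above the WT libraries. The list took 0.546% of the counts in that library, 0.764% and 0.821% in tup1 replicates 2 and 3, and 0.208 to 0.228% in WT, and its median without that library was 2.06. The activators rose too, MSN4 by 1.43 and MSN2 by 0.46 on the log2 scale, as did the stress-induced repressor gene XBP1 (4.35).

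HSP12 (YFL014W, chromosome VI 107256 to 107585) had 143, 163 and 242 CPM in tup1 and 1.91, 3.38 and 2.63 CPM in WT (6.11 ± 0.26, adjusted p = 3.12e-09). Part of its promoter is shown because it holds the motif on which the stress genes are known to rely. The 200 bases are those from 300 to 101 before the start codon, at chrVI:106956-107155 on the plus strand (R64, RefSeq). Capitals mark the stress response element AGGGG, which reads CCCCT on the other strand, and the TATA box TATAAA.
HSP12: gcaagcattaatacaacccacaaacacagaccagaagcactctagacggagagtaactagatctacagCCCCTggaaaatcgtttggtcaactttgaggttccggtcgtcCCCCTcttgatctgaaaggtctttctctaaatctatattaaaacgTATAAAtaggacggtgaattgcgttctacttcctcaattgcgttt

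Searched on both strands over the 300 bases before the start codon, AGGGG stood in 22.5% of the windows of all 5464 tested open reading frames and in 74.2% of those of the 31 general stress genes. It stood in 38% of windows of genes that rose at least 2-fold, in 33.4% of genes that rose less than 2-fold, in 20.04% of genes not called and in 13.0% of genes that fell. TATAAA, which does not overlap it, stood in 56.9% of windows of genes that rose at least 2-fold, 45.4% of genes that fell and 47.5% of all. These are counts of letters, and a match is not evidence of binding.

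Other stress classes moved less evenly. Of 26 heat shock and chaperone genes 12 rose (46.2%) and 4 fell (15.4%), with a median of 0.08. Over all genes tested 23.4% rose and 14.3% fell, so the falls lay near that share. The small heat shock gene HSP26 had 74.4, 73.1 and 93.3 CPM in tup1 and 3.34, 4.13 and 4.15 CPM in WT (4.38 ± 0.15, adjusted p = 4.32e-11), and HSP31 (3.05) and the membrane protein gene HSP30 (1.97) rose too. The Hsp90 and Hsp70 co-chaperone genes STI1 (−0.51) and YDJ1 (−0.36) fell, and so did SIS1 (−0.25) and FES1 (−0.25), although the falls of the last pair were each lost in 3 of the alternatives run (largest adjusted p = 0.132 for SIS1 and 0.0843 for FES1). Without tup1 replicate 1, 10 of these 26 fell, with upper-quartile scaling 7 rose and 9 fell, and without WT replicate 1 or 3 only 7 rose. Of 12 osmotic stress genes 8 rose and none fell, among them the glycerol synthesis genes GPD1 (1.56) and GPP2 (1.95). Of 22 oxidative stress genes 10 rose and 2 fell (5 fell without tup1 replicate 1), led by OYE3 (4.43), which encodes an NADPH oxidoreductase.

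Genes of anaerobic and hypoxic growth rose. All 8 DAN/TIR mannoprotein genes rose, with a median of 3.98, and 7 of the 8 did so without tup1 replicate 1. TIR1 (YER011W) had 391, 466 and 444 CPM in tup1 and 6.19, 7.77 and 6.78 CPM in WT (5.97 ± 0.11, adjusted p = 1.11e-12). TIR3 had 176, 188 and 184 CPM in tup1 and 10.5, 11.5 and 9.82 CPM in WT (4.10 ± 0.08). No tup1 library came near a WT library in either. Of 9 tested seripauperins, small subtelomeric cell wall proteins, 8 rose (6 without tup1 replicate 1), but 15 of the 24 listed had too few counts to be tested and the copies share reads, so the single genes are uncertain. Members with almost no WT counts were tested only because they were high in tup1, so this count is partly fixed by the filter. PAU5, for example, had 4.21, 3.10 and 5.20 CPM in tup1 and 0.119, 0.501 and 0.138 CPM in WT. PAU24 is counted in both lists.

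Of 14 hypoxic genes 12 rose and none fell (median 1.19). They included ANB1 (YJR047C), the hypoxic form of translation factor eIF5A, with 283, 209.9 and 207 CPM in tup1 and 4.77, 4.51 and 5.67 CPM in WT (5.55 ± 0.16, adjusted p = 6.37e-11). PDR11, a sterol importer, rose by 3.16, CYC7, the hypoxic isoform of cytochrome c, by 2.8, and the cytochrome oxidase isoform gene COX5B by 1.66 on the log2 scale. ROX1, whose product represses these genes with Tup1, rose as well (0.74). OLE1 (−0.08) and ERG11 (0.03), listed with them, did not pass the test. The Rox1 core ATTGTT stood in 57.1% of the 14 promoter windows and in 34.5% of all windows. Its share was also 57.1% in the 14 windows of the DNA damage list below, and 36.0% in genes that rose at least 2-fold. The letters thus do not set the hypoxic list apart.

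Flocculation genes rose, 5 of 6, with a median of 2.82. FLO1 (YAR050W) had 329.9, 278 and 259 CPM in tup1 and 10.2, 8.02 and 9.26 CPM in WT (4.97 ± 0.12), and FLO9 had 485, 534 and 483 CPM in tup1 and 4.05, 6.26 and 2.9 CPM in WT (6.81 ± 0.15). FLO11, the adhesin of filamentous and biofilm growth, which differs in sequence from the others, had 54.7, 73.3 and 73.6 CPM in tup1 and 3.81, 5.76 and 6.91 CPM in WT (3.62 ± 0.18, adjusted p = 4.48e-09). All the tup1 libraries lay above all the WT libraries in these genes, and 50.5% of all genes tested had no overlap. FLO1, FLO5 and FLO9 are near-identical, so their counts may be shared among copies.

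Genes for sugars other than glucose and for uptake at low glucose rose, in a medium that held 2% dextrose. Of 20 genes of hexose transport and sensing 17 rose and none fell (median 1.47), 11 of them at least 2-fold. HXT8 (3.98), HXT6 (3.96), HXT10 (3.89) and HXT5 (3.77) rose most after HXT15 and HXT13, whereas the main low-affinity transporter genes HXT1 (0.51) and HXT3 (0.79) rose less. HXT13 had 170 counts over the tup1 libraries and 3 over the WT libraries, a ratio of 63.2 (counting interval 21.2 to 309). Pairs such as HXT6 and HXT7 or HXT13 and HXT15 share reads. HXT2 (0.09), RGT1 (0.04) and STD1 (0.22) did not pass the test.

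Invertase and maltase genes rose, 10 of 11 tested, with a median of 2.15. SUC2 (YIL162W), which encodes invertase and is the classical glucose-repressed gene, had 623, 605 and 603 CPM in tup1 and 134, 137 and 142 CPM in WT (2.15 ± 0.07, adjusted p = 3.94e-11). The isomaltase genes IMA2 (4.45) and IMA5 (3.02) and the maltase gene MAL12 (5.72) rose more, from a lower WT level per kilobase. For MAL12 this was 24.6 CPM per kb in tup1 and 0.457 CPM per kb in WT, against 382 and 86.1 CPM per kb for SUC2 in tup1 and WT. Of 6 tested galactose genes 4 rose: the activator GAL4 (1.89), its partners GAL3 (1.65) and GAL80 (0.26), and the permease gene GAL2 (1.98). The structural genes did not pass: GAL7 stood at 1.04 and GAL1 at −0.08 on the log2 scale.

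Genes for growth on non-fermentable carbon rose. In gluconeogenesis, the glyoxylate cycle and organic acid transport 18 of 19 rose, with a median of 1.94, and 1 fell. JEN1 (YKL217W), the lactate permease gene, had 78.9, 85.2 and 87.1 CPM in tup1 and 5, 5.01 and 4.15 CPM in WT (4.14 ± 0.11, adjusted p = 4.99e-12). The key enzymes PCK1 (2.87), FBP1 (2.28) and MLS1 (2.37) and the activators ADR1 (2.49), SIP4 (2.32) and CAT8 (1.26) all rose. DLD1, a lactate dehydrogenase gene, fell (−0.28). In beta-oxidation and peroxisomes 11 of 22 rose and none fell, among them POT1 (4.51), the thiolase, POX1 (2.55), the acyl-CoA oxidase, and CAT2 (1.99), a carnitine acetyltransferase. Of 15 genes of the tricarboxylic acid cycle 13 rose, with a median of 0.43, and in the respiratory chain and ATP synthase 12 of 33 rose and 1 fell, with a median of 0.11 (15 rose and 5 fell without tup1 replicate 1, 5 rose without WT replicate 1 and 7 without WT replicate 2). The largest there was NDE2 (4.85), an external NADH dehydrogenase. The 6 mitochondrially encoded markers summed to 1100.0 to 1550 CPM in tup1 and 1141 to 1214 CPM in WT, with the highest sum in tup1 replicate 1, and their part in these small rises was not tested.

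Reserve carbohydrate genes rose, 18 of 20, with a median of 0.97, and 1 fell. GPH1 (YPR160W), glycogen phosphorylase, had 534, 556 and 599.7 CPM in tup1 and 64.2, 78.7 and 68.4 CPM in WT (3.0 ± 0.09, adjusted p = 1.62e-11). The glycogen branching enzyme gene GLC3 (2.50), the debranching enzyme gene GDB1 (1.85) and GAC1 (4.64), a regulatory subunit of protein phosphatase, rose with it. The phosphoglucomutase gene PGM1 fell (−0.29), a call lost without WT replicate 2 or 3 or without either tup1 replicate 2 or 3. Glycolysis and fermentation genes split, 7 rising and 1 falling of 21, with a median of 0.18. The rises were in minor or inducible isoenzymes: TDH1 had 682, 542 and 534 CPM in tup1 and 27, 24.9 and 23.9 CPM in WT (4.53 ± 0.11, adjusted p = 3.43e-12), and the glucokinase gene GLK1 rose by 1.99, HXK1 by 1.69 and PDC6 by 3.38 on the log2 scale. TDH2 fell (−0.42), a call lost without any 1 of the 5 other libraries, whereas without tup1 replicate 1 a total of 10 of the 21 fell. The glycolysis list was at a median of 0.39 in tup1 replicate 1, and at 0.09 and 0.03 in tup1 replicates 2 and 3, against the WT mean on the log2 scale of CPM plus 0.5. The TDH genes are close copies and may share reads.

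Ribonucleotide reductase genes rose. This enzyme makes the precursors of DNA, and its damage-inducible genes are held down by Rfx1 with Tup1 and Cyc8. RNR3 (YIL066C, chromosome IX 238099 to 240708), the damage-inducible large subunit, had 495, 399 and 387 CPM in tup1 and 13.1, 12.8 and 11.6 CPM in WT (5.09 ± 0.12, adjusted p = 2.55e-12). The small subunit genes RNR2 (2.50) and RNR4 (2.01) rose less, and RNR2 reached 3890.5, 3106 and 2973 CPM in tup1, against 599, 568 and 600.3 CPM in WT. RNR1, the main large subunit, rose by 0.46. Of the 14 genes on the DNA damage list 10 rose, RFX1 itself among them (1.19), and none fell. DUN1 (−0.05), DIN7 (−0.16), RAD54 (−0.01) and MAG1 (0.30) did not pass. The RNR3 promoter is shown as the classical target of this repressor, from base 300 to base 101 before the start codon, at chrIX:240809-241008 on the minus strand (R64, RefSeq). Capitals mark GGCAAC, part of the Rfx1 site (here as GTTGCC) and TATAAA (as TTTATA where it lies on the other strand).
RNR3: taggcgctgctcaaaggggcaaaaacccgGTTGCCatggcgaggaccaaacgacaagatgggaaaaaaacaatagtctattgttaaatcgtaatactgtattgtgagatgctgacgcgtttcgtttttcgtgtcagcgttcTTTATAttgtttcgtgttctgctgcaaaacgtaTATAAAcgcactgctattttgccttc

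The GGCAAC letters stood in 3 of the 14 windows of the list (21.4%) and in 7.34% of all windows. Their share was also 21.4% in the 14 hypoxic windows, and 6.97% in genes that rose at least 2-fold. AGGGG, which is also in the RNR3 stretch, stood in 57.1% of the list.

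Nutrient uptake genes rose in several systems. Of 25 iron genes 17 rose and none fell, with a median of 0.40 and a range up to FIT2 (YOR382W), a siderophore-binding mannoprotein, with 326, 426 and 394 CPM in tup1 and 15.7, 14.9 and 14 CPM in WT (4.68 ± 0.11, adjusted p = 3.43e-12). FIT3 (2.83), FRE5 (3.38), a ferric reductase homologue, and the siderophore transporter gene ARN1 (1.52) rose too. The high-affinity ferroxidase gene FET3 stood at 0.06 and did not pass, and its permease partner FTR1 rose by 0.26. The high-affinity zinc transporter gene ZRT1 rose by 2.04. Of 16 phosphate genes 5 rose and 5 fell (31.25% each way, where 23.4% of all genes tested rose and 14.3% fell). GIT1 (3.77), a transporter of glycerophosphodiesters, and PHO89 (1.53), a sodium-phosphate symporter, rose, while VTC3 (−0.44) and VTC4 (−0.41), for polyphosphate synthesis, fell. The acid phosphatase gene PHO5 fell too (−0.34), a call lost in 3 of the alternatives run. Among them were those without WT replicate 1 (adjusted p = 0.0708) or tup1 replicate 2 (adjusted p = 0.0527).

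Drug and polyamine exporters rose, 17 of 22, with a median of 0.90, and 3 fell (none without WT replicate 1). TPO2, a polyamine exporter gene, had 275, 275 and 235 CPM in tup1 and 10.7, 9.02 and 10.6 CPM in WT (4.69 ± 0.10, adjusted p = 1.18e-12), and the transporter genes QDR1 (2.51), RSB1 (2.36) and PDR15 (2.13) rose too. In the vitamin list 14 of 26 rose and 3 fell. The thiamine genes THI4 (3.87), THI7 (2.98) and THI20 (2.29) rose, while the NAD synthesis genes BNA1 (−1.40) and BNA4 (−1.04) and the nicotinic acid permease gene TNA1 (−0.36) fell. ADE17 (YMR120C), a purine synthesis enzyme, had 401, 374 and 372 CPM in tup1 and 37.8, 31.2 and 39.3 CPM in WT (3.41 ± 0.09), although the median of 19 purine genes was 0.05.

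Cell wall genes rose, 18 of 27, with a median of 0.48, and 1 fell. TIP1, a mannoprotein, had 661, 750.4 and 723 CPM in tup1 and 72.2, 73.3 and 73.6 CPM in WT (3.28 ± 0.08, adjusted p = 3.43e-12). CWP1 (2.06), the stress-induced glucan synthase gene GSC2 (1.90) and the yapsin protease gene YPS3 (1.80) rose, and the crosslinking transglycosylase gene UTR2 fell (−0.56). HO, the mating type switching endonuclease gene, had 116, 112 and 124 CPM in tup1 and 66.4, 60 and 61.7 CPM in WT (0.91 ± 0.07, adjusted p = 2.41e-07), with no overlap. Sporulation genes were mixed, 9 rising and 1 falling of 20 tested, the fall lost without most single libraries. DIT1 (3.63), SPS100 (3.74) and DIT2 (2.66), of the spore wall, rose, as did the meiotic inducer gene IME1 (1.48), whereas IME2 (0.41) and SPO11 (−0.47) did not pass.

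Most genes of the repressor system rose. Of 20 genes for Tup1, Cyc8 and the proteins that recruit them 17 rose and none fell, with a median of 0.63, and without tup1 replicate 1 19 rose. NRG1 (YDR043C), a glucose-dependent repressor, had 52.7, 60.5 and 70.1 CPM in tup1 and 10.8, 11.5 and 12 CPM in WT (2.42 ± 0.12, adjusted p = 2.82e-09). YAP6 (2.15), CIN5 (2.05), RFX1 (1.19) and SOK2 (1.19) rose, and the glucose repressor gene MIG1 rose by 0.43. CYC8 had 167, 211 and 196 CPM in tup1 and 157, 163 and 151 CPM in WT (0.28 ± 0.08, adjusted p = 0.0163). Its groups did not overlap, but the gene was not called after upper-quartile scaling, nor when tup1 replicate 2, WT replicate 1 or WT replicate 3 was left out (largest adjusted p = 0.0883). SKO1 (−0.06), HAP1 (0.11) and MOT3 (0.17) did not pass. In tup1 replicate 1 the list was at a median of 0.40 against the WT mean, on the log2 scale of CPM plus 0.5, and in replicates 2 and 3 it was at 0.73. SWI/SNF, a nucleosome remodeller, and SAGA, a histone acetyltransferase complex, are coactivators. Of their 22 listed genes none rose and 4 fell (7 without tup1 replicate 1, 8 without tup1 replicate 3, 11 with upper-quartile scaling), SNF11 (−0.48) most. Those 4 are 18.2% of the list, and 14.3% of all genes tested fell. Of 10 histone deacetylase complex genes none rose and 2 fell, RPD3 (−0.31) and HOS1 (−0.59, not called without WT replicate 3).

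**Figure D3:**
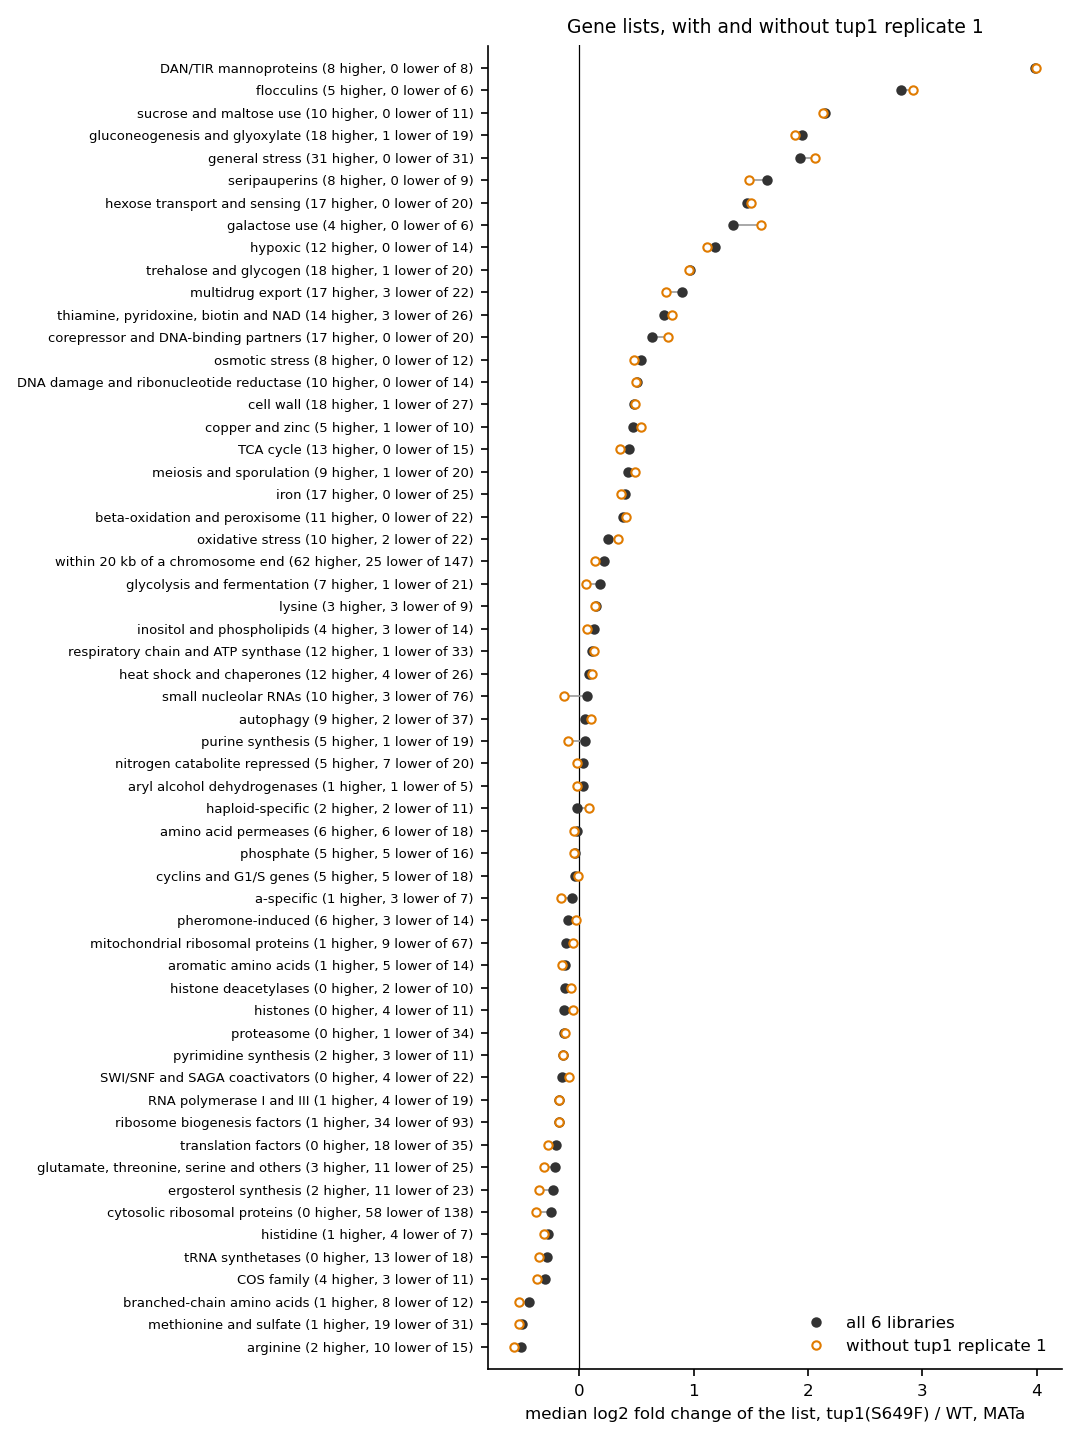
Median log2 fold change (tup1(S649F) over WT, MATa; x axis) of 58 gene lists, black over all 6 libraries and open orange without tup1 replicate 1; the counts beside each name are members higher and lower of those tested in the fit of 6 libraries. The rising lists reach 3.98, the falling lists stop at −0.51, and leaving out the library moves the medians of glycolysis, small nucleolar RNAs and ribosomal proteins to the left.

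The genes that fell were fewer and changed less, and amino acid and sulfur metabolism led them. At the same minimum of 10 CPM, the 12 largest falls were those of ARG1, COS8, FUS1, SAM2, AGP3, SEO1, MXR1, SUL2, BNA1, IRC24, GAP1 and DIP5. ARG1 (YOL058W, chromosome XV 219211 to 220473), the argininosuccinate synthase of arginine synthesis, had 10.9, 10.3 and 13.4 CPM in tup1 and 54, 49.5 and 51.6 CPM in WT (−2.16 ± 0.11, adjusted p = 2.94e-09). All 3 tup1 libraries lay well below all 3 WT libraries. SEO1, a putative permease, stood at −1.49, MXR1, a methionine sulfoxide reductase, at −1.46, and IRC24, a reductase, at −1.38. COS8 (YHL048W), one of a family of subtelomeric genes for endosomal sorting, had 22.8, 17.3 and 16.9 CPM in tup1 and 84.3, 79.2 and 73.1 CPM in WT (−2.05 ± 0.11, adjusted p = 5.27e-09). Of the 11 tested COS genes 4 rose and 3 fell (2 rose without any 1 WT library, 7 fell without tup1 replicate 1), and the copies share reads. These counts are 36.4% and 27.3%, where 23.4% of all genes tested rose and 14.3% fell.

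Arginine synthesis genes fell together. Of 15 arginine genes 10 fell and 2 rose, with a median of −0.51, and without tup1 replicate 1 11 fell. ARG3 (−1.07), ARG56 (−0.86), ARG8 (−0.80), ARG4 (−0.66) and CPA1 (−0.42) fell, all steps of synthesis. CAR2 (1.40), of arginine breakdown, and ARG80 (0.39), a regulator of the pathway, rose, while CAR1, the arginase, fell (−0.52). The ARG1 promoter is shown because ARG1 led these falls, from base 300 to base 101 before the start codon, at chrXV:218911-219110 on the plus strand (R64, RefSeq). Capitals mark the Gcn4 core TGACTC (here as GAGTCA), which Gcn4, the general activator of amino acid synthesis, binds.
ARG1: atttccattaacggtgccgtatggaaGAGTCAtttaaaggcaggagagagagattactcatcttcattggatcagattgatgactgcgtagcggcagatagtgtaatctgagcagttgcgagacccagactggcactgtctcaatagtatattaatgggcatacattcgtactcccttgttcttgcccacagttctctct

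The core stood in 73.3% of the 15 arginine windows, in 9.15% of windows of all genes that fell and in 8.05% of all windows. GCN4 itself had 1017, 927 and 941 CPM in tup1 and 838, 819 and 826 CPM in WT. Its groups did not overlap, and the difference did not pass (0.22 ± 0.08, adjusted p = 0.0564) in all 6 libraries. It passed without tup1 replicate 1 (0.17, adjusted p = 0.00227). The other amino acid lists were lower in part. In the branched-chain list 8 of 12 fell, led by LEU1 (−1.23), the isopropylmalate isomerase, with 919.6, 815 and 803 CPM in tup1 and 2074, 1912 and 1982 CPM in WT. The second gene there, LEU2 (−0.98), is a mutant allele in both strains. In the list of glutamate, threonine, serine and related genes 11 of 25 fell and 3 rose, with ASN1 (−0.59), GDH1 (−0.49) and GLT1 (−0.49) lower and GDH3 (1.67), the glutamate dehydrogenase of non-fermentative growth, higher. Histidine genes gave 4 lower of 7, HIS4 (−0.76) first, with HIS5 higher (1.17). The aromatic list had 5 lower of 14 (2 without WT replicate 1 or tup1 replicate 2, 8 without tup1 replicate 1). The lysine list had 3 of 9 in each direction (1 lower without WT replicate 1 or 2 or tup1 replicate 2 or 3).

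Genes of methionine, sulfate and S-adenosylmethionine metabolism fell. Of 31 listed 19 fell and 1 rose, with a median of −0.49. SAM2 (YDR502C, chromosome IV 1453310 to 1454464), an S-adenosylmethionine synthetase, had 138, 116 and 116 CPM in tup1 and 463, 451 and 439 CPM in WT (−1.87 ± 0.08, adjusted p = 6.35e-10). The groups were far apart, with tup1 replicate 1 the highest of its group. The sulfate permease gene SUL2 (−1.43), the assimilation genes MET14 (−1.07), MET1 (−1.06) and MET5 (−0.90) and the methionine synthase gene MET6 (−0.88) fell. The second sulfate permease gene SUL1 rose (0.97), and SAM1, the other S-adenosylmethionine synthetase gene, stood at 0.20 and did not pass. Without tup1 replicate 1 21 fell and 5 rose. The SAM2 promoter is shown as that of the largest fall in this list, from base 300 to base 101 before the start codon, at chrIV:1454565-1454764 on the minus strand (R64, RefSeq). Capitals mark TGTGGC, which reads GCCACA on the other strand, the core of the sulfur activators Met31 and Met32.
SAM2: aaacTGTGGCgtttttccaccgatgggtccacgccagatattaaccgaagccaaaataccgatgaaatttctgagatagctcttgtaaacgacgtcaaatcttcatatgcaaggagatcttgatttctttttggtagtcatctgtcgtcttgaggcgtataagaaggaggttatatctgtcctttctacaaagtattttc

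TGTGGC stood in 54.8% of the 31 windows and in 8.22% of all windows. CACGTG, the Cbf1 core, stood in 35.5% of the list and in 3.64% of all, and it is not in the SAM2 stretch shown.

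Amino acid permease genes changed in both directions, 6 rising and 6 falling of 18 (33.3% each way). GAP1, the general permease of poor nitrogen, had 287, 189 and 185 CPM in tup1 and 645, 541 and 529.6 CPM in WT (−1.37 ± 0.15, adjusted p = 1.91e-05). DIP5, for glutamate and aspartate, had 128, 134 and 123 CPM in tup1 and 335, 340.3 and 318 CPM in WT (−1.37 ± 0.07). Neither gene's groups overlapped, and GAP1 was highest in tup1 replicate 1 within its group. AGP3 (−1.50) and the peptide transporter gene OPT2 (−0.78) fell as well. ALP1 (3.35), a basic amino acid permease, PUT4 (1.95), for proline, and AGP2 (1.45) rose. Among 20 genes under nitrogen catabolite repression 5 rose and 7 fell (4 without WT replicate 3). The rises, at 25%, lay near the 23.4% of all genes tested, and the falls were 35%, against 14.3%. The ammonium permease gene MEP2 was lower (−1.15) and MEP1 higher (0.63).

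Ergosterol genes fell in part, 11 of 23 lower and 2 higher, with ERG7 (−0.84), ERG12 (−0.64), ERG26 (−0.57) and ERG6 (−0.52) lower. In these 4 genes every tup1 library lay below every WT library. They were named for the largest falls of the list, and 50.5% of all genes tested had no overlap. The hypoxic reductase isoform gene HMG2 (0.43) and ERG28 (0.52), for a scaffold of the pathway, rose. The median log2 fold change of the list was −0.22. Against the WT mean, on the log2 scale of CPM plus 0.5, the list was at −0.05, −0.31 and −0.38 in tup1 replicates 1 to 3, so replicate 1 was the nearest to WT.

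Many ribosome and translation genes fell slightly, and the counts turned on single libraries. Of 138 cytosolic ribosomal protein genes 58 fell and none rose, with a median of −0.25. Without tup1 replicate 1 the counts were 116 lower and 2 higher, with a median of −0.38. Without WT replicate 1, 2 or 3 or without tup1 replicate 2, 12, 33, 28 and 21 fell, and 98 fell with upper-quartile scaling. The genes took 10.6%, 9.19% and 9.97% of the counts in tup1 replicates 1 to 3 and 12.2%, 11.7% and 11.9% in WT. By these shares all tup1 libraries were below all WT libraries, and replicate 1 was the nearest to WT. The shares are not scaled by TMM, and the factor of 0.883 in tup1 replicate 1 raises its scaled level, so this separation is not one of CPM. Against the WT mean, on the log2 scale of CPM plus 0.5, the list was at −0.09, −0.43 and −0.30 in tup1 replicates 1 to 3. It was at −0.04 to 0.04 in the WT libraries. RPS24A had 324, 197 and 255 CPM in tup1 and 402, 384 and 372 CPM in WT (−0.58 ± 0.14, adjusted p = 0.0066), and RPL8A stood at −0.53 and RPL36A at −0.52. Many of these genes are pairs that share reads. The RPP2B stalk gene, high in tup1 replicate 1, had 1259.9, 637 and 636 CPM in tup1 and 1047, 1069.9 and 1026 CPM in WT, and it passed without that library (−0.72, adjusted p = 1.99e-15) and with quality weights, not in all 6 libraries (−0.31, adjusted p = 0.287).

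Of 18 transfer RNA synthetase genes 13 fell and none rose, with a median of −0.28. Without tup1 replicate 1 all 18 fell, and 8 fell without tup1 replicate 2, WT replicate 1 or WT replicate 3. GLN4 stood at −0.52, WRS1 at −0.45 and KRS1 at −0.43. Translation factors gave 18 lower of 35 (28 without tup1 replicate 1; 8, 11 and 9 without WT replicates 1, 2 and 3), EFB1 (−0.45) first. Ribosome biogenesis factors gave 34 lower and 1 higher of 93, with 50 lower without tup1 replicate 1, 22, 22 and 18 without WT replicates 1 to 3 and 61 with upper-quartile scaling. Proteasome genes gave 1 lower of 34, 14 lower without tup1 replicate 1 and 21 with upper-quartile scaling. Small nucleolar RNAs, which guide the modification of ribosomal RNA, gave 10 higher and 3 lower of 76. Without tup1 replicate 1 this became 11 higher and 18 lower, with medians of 0.07 and −0.13 over the fits with and without it. The library moved single members far, as in SNR190, with 429 CPM in tup1 replicate 1, 152 and 199.9 CPM in tup1 replicates 2 and 3, and 359, 335 and 315 CPM in WT.

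**Figure D4:**
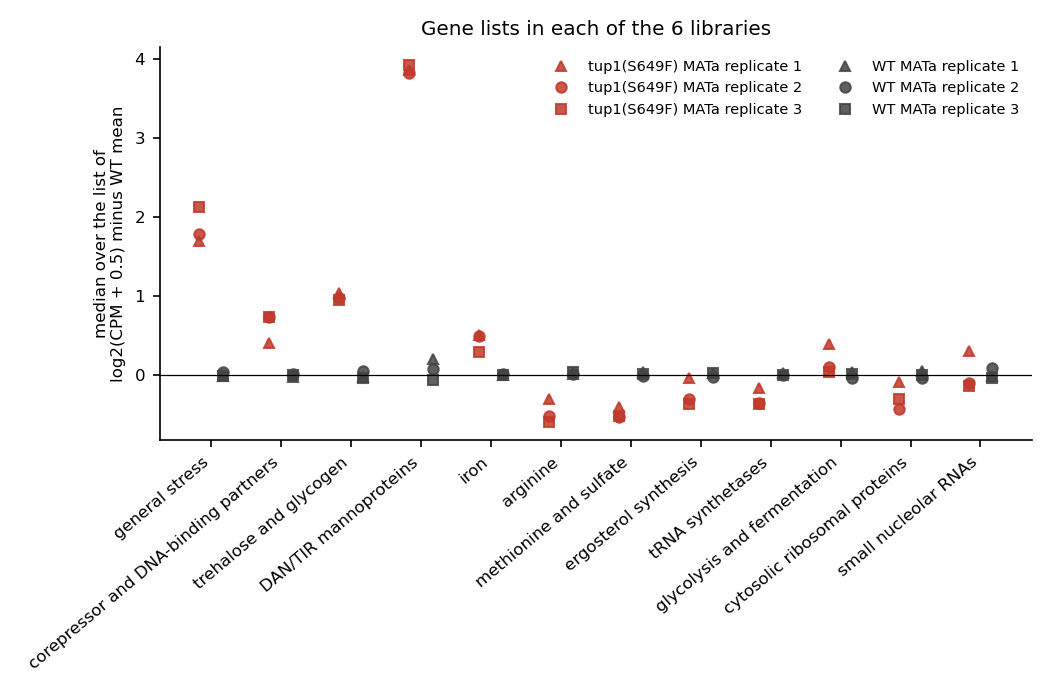
Median over each of 12 gene lists of the log2 level (CPM plus 0.5) minus the mean of the WT libraries (y axis), for each library; red, tup1(S649F) MATa; grey, WT MATa; shapes mark replicates 1 to 3. The stress, mannoprotein, trehalose and iron lists lie above 0 in all 3 tup1 libraries, the arginine, methionine and synthetase lists below 0 in all 3, and tup1 replicate 1 stands above its replicates for glycolysis, ribosomal protein and small nucleolar RNA genes and below them for the corepressor list.

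The other lists lay near 0 or were small. Their counts are to be read against the 23.4% of all genes tested that rose and the 14.3% that fell. Of 37 autophagy genes 9 rose (24.3%), led by ATG34 (1.98) and ATG39 (1.87), cargo receptors, and 2 fell. Of 10 tested copper and zinc genes 5 rose, among them the copper transporter gene CTR1 (1.08), and 1 fell. Inositol and phospholipid genes gave 4 higher, with INO1 (0.83) first, and 3 lower of 14, but 1 higher with upper-quartile scaling or without WT replicate 2 or 3. Mitochondrial ribosomal proteins gave 1 higher and 9 lower of 67 (1 lower without WT replicate 3, 23 with upper-quartile scaling), RNA polymerase I and III subunits 1 and 4 of 19 (9 lower without tup1 replicate 1, 10 with upper-quartile scaling), and pyrimidine genes 2 and 3 of 11 (5 lower without tup1 replicate 1, 7 with upper-quartile scaling). Of 18 cyclin and G1/S genes 5 rose, CLN3 (0.61) most, and 5 fell, CLB5 (−0.46) most (3 without WT replicate 1 or 2). Of 11 histone genes 4 fell, HHT1 (−0.45) most, and 1 without WT replicate 1 or 3 or tup1 replicate 2. Aryl alcohol dehydrogenase genes gave 1 of 5 in each direction.

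Mating genes of MATa cells changed in both directions, where 23.4% of all genes tested rose and 14.3% fell. The haploid-specific genes, at 18.2% each way, lay near these shares. Of 7 a-specific genes 1 rose and 3 fell: the a-factor gene MFA2 (0.86) rose, while BAR1 (−0.88), the protease that degrades alpha-factor, MFA1 (−0.39) and the a-factor exporter gene STE6 (−0.28) fell. The call was lost for MFA1 in the fit of all 12 libraries (adjusted p = 0.0716) and for STE6 without WT replicate 2 or 3 (largest adjusted p = 0.06). MFA2 had 515, 631 and 563 CPM in tup1 and 322, 301 and 318 CPM in WT, with no overlap. STE2, the alpha-factor receptor gene, had 654, 568 and 529 CPM in tup1 and 607, 596 and 630.4 CPM in WT, and its groups overlapped (−0.07, adjusted p = 0.604; −0.16, adjusted p = 0.00944 without tup1 replicate 1). Of 14 tested pheromone-induced genes 6 rose (3 without tup1 replicate 2) and 3 fell. FUS1, needed for cell fusion, had 2.58, 2.45 and 4.03 CPM in tup1 and 12.3, 11.2 and 11.2 CPM in WT (−1.91 ± 0.20, adjusted p = 4.7e-06), and SST2, which damps the pheromone signal, stood at −0.79. AFR1, which shapes the mating projection, rose (1.37). Of 11 haploid-specific genes 2 rose, HO and RME1 (0.63), a repressor of entry into meiosis, and 2 fell, AXL1 (−0.31) and GPA1 (−0.26), of a-factor processing and pheromone signalling. The call of GPA1 was lost without tup1 replicate 2 or WT replicate 1 or 3 (largest adjusted p = 0.0739).

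Strong rises were most frequent near chromosome ends. Of the 97 genes tested at 10 to 20 kb from an end 35.1% were at least 2-fold higher, and of 127 at 20 to 30 kb 22.0% were. This share was 12.1% of 289 at 30 to 50 kb and 6.96% of 4901 further in. In the outermost 10 kb it was 14.0% of the 50 tested, of 119 genes there in all, since the others had too few counts. Falls of at least 2-fold were also most frequent in those 10 kb, at 12%, against 0.388% beyond 50 kb. The gene families there share reads. Among the 62 genes within 20 kb of an end that rose were YMR317W, with 112, 136 and 119 CPM in tup1 and 2.62, 1.75 and 1.94 CPM in WT, and DSF1, HXT15 and MAL12.

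**Figure D5:**
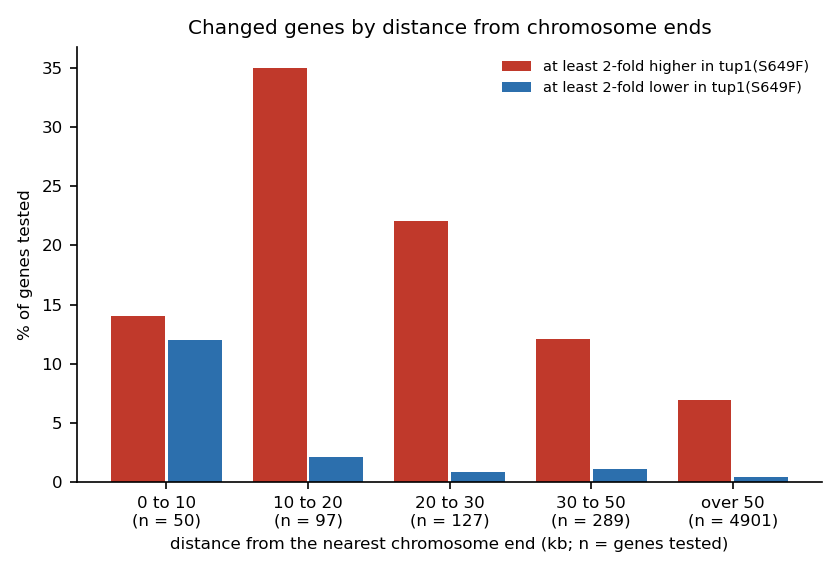
Share of tested genes (% on the y axis) that were at least 2-fold higher (red) or lower (blue) in tup1(S649F) than in WT MATa, in bins of distance from the nearest chromosome end (kb, x axis; n is the number of genes tested). The share of strong rises is highest, at 35.1%, in the bin from 10 to 20 kb, and that of strong falls, at 12%, in the outermost bin. The bins are not matched for WT level.

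The nearest comparison in the series is that of tup1(S649F) MATalpha (strain DY19306) with WT MATalpha (strain DY3420), of the same background and growth and with 3 libraries each. In 1 fit of all 12 libraries, the effect of the mutation differed between the mating types in 1349 of 5654 genes (23.9%), in 1960 without tup1 MATa replicate 1 and in 1095 to 1252 without 1 of the other MATa libraries. In MATalpha 32% of the genes in that fit were called higher and 31% lower. Of the genes that rose at least 2-fold in MATa, 440 of the 446 were also called higher in MATalpha (98.7%), with medians of 1.94 in MATa and 2.19 in MATalpha. The difference itself was called in 34 of them towards a larger effect in MATa and in 98 towards a smaller one (52 and 108 without tup1 MATa replicate 1). Of the 31 genes that fell at least 2-fold in MATa, 17 were also called lower and 6 were called higher in MATalpha, with medians of −1.38 in MATa and −0.58 in MATalpha. The difference was called in 17 of the 31, in 16 of them towards a lower value in MATa (19 without tup1 MATa replicate 1). Of all 802 genes that fell in MATa, 600 were also lower in MATalpha and 53 higher. These sets were all chosen by their change in the MATa libraries, which by itself favours a larger effect in MATa. Whether the falls are weaker in MATalpha is therefore not shown by these medians and counts.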

How the data were processed

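The deposited table holds raw read counts per gene for 12 libraries, made by the authors. Per the submitters' processing notes it involved cutadapt 2.8, STAR 2.7.3 and featureCounts 1.6.3 with builds sacCer3 and R64; the strand setting of the counting is not given in the sources used here, so overlapping and antisense genes are uncertain. The 6 MATa libraries were fitted in R 4.3.3 with edgeR 4.0.16 (TMM, filterByExpr with a minimum count of 10, robust quasi-likelihood test, two-sided, Benjamini-Hochberg adjustment, threshold 0.05), again without tup1 replicate 1, and again in 1 fit of all 12 libraries for the difference between mating types. The fit was checked on simulated data. Levels (CPM) are edgeR's normalised counts, relative to the library total times its TMM factor, divided by gene length where given per kb. A fold against 0 counts uses a floor of 3 counts over the WT group. Depths of 6045757 to 8337346 counts limit low genes most.

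Alternatives were RLE and upper-quartile scaling, no filter on low counts, a replicate block, leaving out each library, DESeq2 1.42.0 and limma 3.58.1 voom with sample quality weights. Named genes are the 12 largest rises and falls that were called with and without tup1 replicate 1, did not overlap between groups and reached a mean of 10 CPM, the members of each list with the largest changes (up to 4 in each direction), a fixed set of known Tup1 targets and regulators, and the extremes of tup1 replicate 1 and of the difference between mating types. Other members in the text were chosen after their values were seen. The comparison and all gene lists were chosen with earlier results of these data known. Of 6219 gene IDs 5925 were matched to the RefSeq annotation of R64, and 276 of the 294 unmatched are transfer RNAs. Same-numbered tup1 and WT libraries showed no shared deviation, with correlations of −0.03, −0.01 and −0.09 over genes, against −0.04 to 0.07 for unlike numbers. With 3 libraries per group this cannot exclude a shared batch, and the main fit did not pair by number. Results for 1 gene list and 1 gene are not reported here.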

Additional observations from a re-analysis of the deposited data

Results flagged for a closer look

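In 10 genes that changed at least 2-fold in MATa cells the effect of tup1(S649F) differed most between the mating types, in the edgeR fit of all 12 libraries. Differences are the log2 effect in MATa minus that in MATalpha.

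FUS1, for cell fusion, had a log2 fold change of −1.91 in MATa and 3.38 in MATalpha, a difference of −5.29 (adjusted p = 3.66e-06). ARG1, for arginine synthesis, stood at −2.16 in MATa and 2.48 in MATalpha, a difference of −4.64 (adjusted p = 3.56e-11). Both were thus called in opposite directions. SNO1, a gene of vitamin B6 synthesis, rose by 2.99 in MATa and by 7.19 in MATalpha, a difference of −4.19 (adjusted p = 0.0029). CPP3 rose by 3.40 in MATa and by 6.15 in MATalpha, a difference of −2.75 (adjusted p = 0.00454), and POT1, the thiolase of beta-oxidation, by 4.51 in MATa and by 7.2 in MATalpha, a difference of −2.69 (adjusted p = 0.0144).

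In the other direction, DIP5, the permease for glutamate and aspartate, stood at −1.37 in MATa and −3.61 in MATalpha, a difference of 2.24 (adjusted p = 1.93e-11). HXT5 rose by 3.77 in MATa and by 2.35 in MATalpha, a difference of 1.42 (adjusted p = 0.039). The differences were 1.32 in BSC1 (adjusted p = 0.0015), 1.21 in PRM7 (adjusted p = 0.0088) and 1.18 in SET6 (adjusted p = 0.019), all of which rose in both mating types. Without tup1 MATa replicate 1 all 10 differences kept their sign and were still called.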

How the results depend on the processing

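The number of genes that rose stayed within 1.5 times of 1309 in every alternative run: 1285 with RLE scaling, 1073 with upper-quartile scaling, 1174 with DESeq2, 1558 with voom and quality weights, and 1090 to 1539 when 1 library was left out. The 802 genes that fell were less stable: 1572 with upper-quartile scaling, 1296 with voom and quality weights, 614 with DESeq2, and 466 to 1279 when 1 library was left out. The median log2 fold change of all genes, −0.01, moved to −0.11 with upper-quartile scaling and lay between −0.027 and 0.0028 when 1 library was left out. A replicate block, which pairs libraries by number, gave 1299 higher and 787 lower genes. Of the named genes, TDH3 and ADH1, not called at 0.09 and 0.13, reversed without tup1 replicate 1 to −0.16 (adjusted p = 0.00319) and −0.13 (adjusted p = 0.0161) and lay at 0.20 and 0.26 at the other end of the range of leaving out 1 library; the cause was not tested. Over the named genes DESeq2 lost 24 calls and gained 3, and upper-quartile scaling lost 16 and gained 4; leaving out 1 library lost 50 (WT replicate 3), 49 (WT replicate 1), 42 (tup1 replicate 2), 35 (WT replicate 2), 18 (tup1 replicate 3) and 2 (tup1 replicate 1, which gained 16). Among unadjusted p-values under 0.05 there were 1482 higher and 1128 lower genes. Depth limits genes with few counts, and falls under about the shift between scalings cannot be told apart from that shift.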

Other observations

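Paired genes for the same step often differed. This set of pairs was chosen after the values were seen, and close copies may share reads. TDH1, a glyceraldehyde-3-phosphate dehydrogenase, had a log2 fold change of 4.53, against −0.42 in TDH2. The hypoxic eIF5A gene ANB1 stood at 5.55 and its aerobic partner HYP2 at −0.24. CYC7 stood at 2.8 and CYC1, the main cytochrome c, at −0.12. The transketolase gene TKL2 stood at 5.04 and TKL1 at −0.10, and the phosphogluconate dehydrogenase gene GND2 at 1.57 and GND1 at −0.02. NDE2 stood at 4.85 and NDE1 at 0.39. The phosphoglucomutase gene PGM2 stood at 1.5 and PGM1 at −0.29, and HXK1 at 1.69 and HXK2 at −0.19. In each of these pairs the higher fold change was in the gene with the lower WT level per kilobase. The WT level is part of the fold change and the pairs were picked by their values, so this order is partly built in.

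Genes that rose at least 2-fold also stood side by side. There were 17 runs of at least 3 neighbouring genes with such rises, holding 60 genes, and 5 of the runs began within 20 kb of a chromosome end. The longest had 7 genes on chromosome I (13363 to 36303, build R64), from TDA8 through FLO9 and GDH3 to the butanediol dehydrogenase gene BDH1, with log2 fold changes of 1.49 to 6.81. A run of 6 lay on chromosome X (19497 to 33158), from HXT9 through IMA5 and HXT8 to YJL213W, at 1.29 to 3.98. A run of 5 lay on chromosome V (19589 to 29543), from DSF1 and HXT13 to the siderophore transporter gene SIT1, at 1.00 to 6.25. Further in, FIT2, FIT3 and FRE5 on chromosome XV, all iron genes, stood together at 2.83 to 4.68. How many such runs genes in another order would give was not tested.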
